A study of Mus musculus with 32 samples.

Results

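Some of the hippocampal RNA-seq libraries in this study carried far more choroid plexus RNA than others. Transthyretin (Ttr), the thyroid hormone carrier that choroid plexus epithelium secretes into the cerebrospinal fluid, was used to order them. The libraries were selected on the measured Ttr level: within each of the 4 study groups the 8 libraries were ranked by the FPKM of Ttr (fragment counts scaled by gene length and library total), and the top 4 were set against the bottom 4. This gave 16 rich libraries and 16 poor libraries out of 32 in all. The study groups were 5xFAD/D-45113, 5xFAD/Veh, WT/D-45113 and WT/Veh, each of 8 mice (4 females and 4 males) aged 12 months, and hippocampi were microdissected after perfusion. 5xFAD mice carry human familial AD transgenes driven by Thy1 sequences, and WT mice were C57BL/6J. D-45113 is a hydroxyl dendrimer bearing an inhibitor of CSF1R, the receptor kinase that microglia need to survive. It was given IP from the age of 11 months over 4 weeks, at 2 injections per week, while Veh mice received the unconjugated hydroxyl dendrimer, so that all mice were given a dendrimer. Each library came from a separate mouse by its label.

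The choroid plexus is a fold of vascular stroma covered by a single sheet of ciliated epithelium that projects into the brain ventricles. Its epithelium makes cerebrospinal fluid, moves ions, folate, vitamins and hormones between blood and fluid, and seals the barrier between them with tight junctions. The plexus of the lateral ventricle is attached along the fimbria, at the edge of the hippocampus, and the ventricle wall beside it is lined by ependymal cells with motile cilia.

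Ttr ranged over 2 orders of magnitude in every study group but 5xFAD/Veh, as the plot of Ttr by library shows. In 5xFAD/D-45113 mice the rich libraries held 3711 (2M), 2629 (1M), 1227 (4F) and 933 FPKM (2F), against 230 (3M), 155 (4M), 31.9 (1F) and 22.7 FPKM (3F) in the poor libraries. In 5xFAD/Veh mice they held 561 (2M), 313 (1M), 182 (4F) and 176 FPKM (3F), against 27.7 (1F), 24.8 (4M), 16.4 (2F) and 14.6 FPKM (3M). Both 5xFAD groups were split at a wide gap, since the last rich library had 4.06 times the Ttr of the first poor library in 5xFAD/D-45113 and 6.37 times in 5xFAD/Veh. In WT/D-45113 mice the rich libraries held 3289 (2F), 2101 (4M), 1073 (2M) and 723 FPKM (3F), against 675 (3M), 593 (1M), 29.4 (4F) and 20.4 FPKM (1F) in the poor libraries. In WT/Veh mice they held 2218 (3F), 1560.4 (4M), 651 (1F) and 214 FPKM (3M), against 155 (2F), 58.5 (4F), 26.8 (2M) and 21.3 FPKM (1M). Here the border was narrow, with a ratio of 1.07 across it in WT/D-45113 and 1.38 in WT/Veh, so that 2 of the poor WT/D-45113 libraries held more Ttr than every rich 5xFAD/Veh library. The highest library exceeded the lowest by 164-fold in 5xFAD/D-45113, 38.4-fold in 5xFAD/Veh, 161-fold in WT/D-45113 and 104-fold in WT/Veh. Ttr made up between 0.0215% and 0.492% of the counts of rich libraries, against 0.00179% to 0.0791% in poor libraries. Because Ttr chose the libraries, these values are a description and were not tested.

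**Figure D1:**
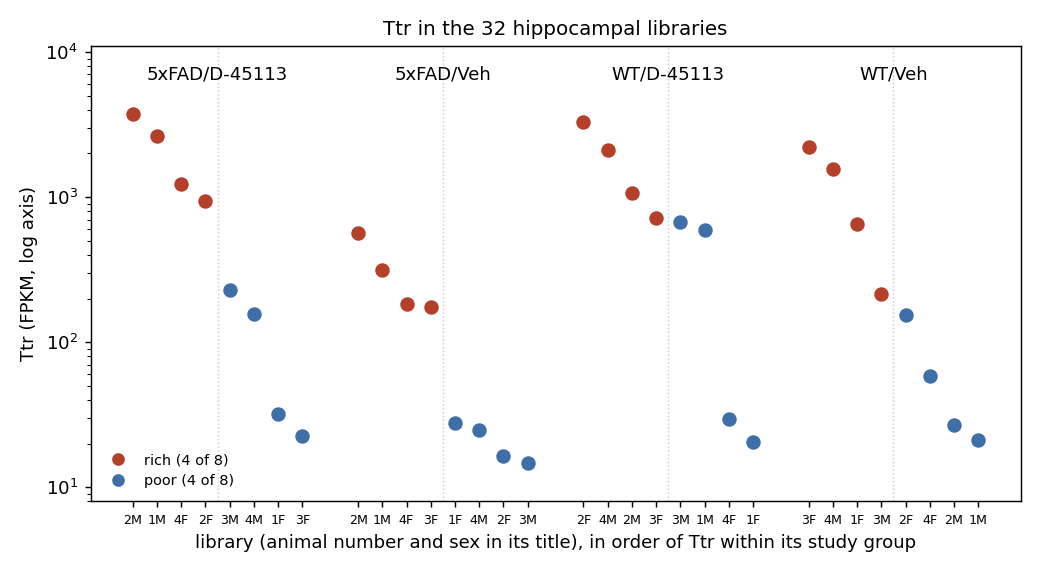
FPKM of Ttr (log axis) in each of the 32 libraries, in falling order within its study group, with the 4 rich libraries left of the dotted line and the 4 poor libraries right of it. The last rich and first poor library lie close together in WT/D-45113 (723 against 675 FPKM) and far apart in 5xFAD/Veh (176 against 27.7 FPKM).

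Both sides held 8 libraries from females and 8 from males. Total counts ran from 11343098 to 30368498 in rich libraries and from 10707410 to 28270061 in poor libraries, and mitochondrial genes took 6.43% to 13.05% of the counts of rich libraries and 6.28% to 10.9% of those of poor libraries. Xist and Ddx3y matched the labelled sex in 32 of 32 libraries. Thy1, whose regulatory sequences drive the transgenes, was higher than in every WT library in 14 of 16 5xFAD libraries. The exceptions were 5xFAD/D-45113 1M and 4F, with Thy1 at 423 and 523 CPM (counts scaled to a common library total), whereas the highest WT library had 529 CPM. Both lie on the rich side, and counts are therefore also given without them. Their scores for plaque-associated microglia genes (mean centred log2 CPM) were 1.01 and 0.90. Over all 5xFAD/D-45113 libraries this score ran from 0.75 to 1.94, and the highest WT library (WT/D-45113 3M) had -1.12. Whether the labels of 1M and 4F are right was not tested.

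The other genes were then tested for a difference between rich and poor libraries in 1 quasi-likelihood model (edgeR) of the raw counts of all 32 libraries, with the study group as a term. Of 16723 genes tested, 233 were higher in rich libraries (1.39%, Ttr not counted) and 30 were lower (0.179%) at an adjusted p under 0.05, 263 in either direction (1.57%). A p-value here tests whether a gene differed between the rich and poor sides within study groups, and does not concern genotype or treatment. The order of Ttr within a side was not used. Of the 233 genes, 134 differed by more than 1 on the log2 scale and 56 by more than 2. In contrast, only 2 of the 30 lower genes differed by more than 1. The log2 fold change was positive in each of the 4 study groups for 224 of the 233 genes, and negative in each for all 30 lower genes. The median over all genes tested was 0.01. Without 5xFAD/D-45113 1M and 4F, 194 genes were higher and 47 were lower. With the log2 level of Ttr as a continuous covariate in place of the 2 sides, 296 genes had a positive slope (1.77%) and 50 a negative slope (0.299%), and 218 genes were called by both.

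Of 89 choroid plexus genes on 5 lists, 55 were higher in rich libraries, where 1.39% of all genes tested were, and 0 were lower. Their median log2 fold change was 1.17, with 82 of 89 above 0, against 51.7% of all genes tested. All 89 passed the filter on low counts. Together the 89 genes took 0.231% to 1.00% of the counts of rich libraries, against 0.163% to 0.290% in poor libraries. When the libraries were ranked by these genes in place of Ttr, 0 of 32 changed side. Leaving out any single library gave between 52 and 56 higher genes, and 52 were higher without 5xFAD/D-45113 1M and 4F. A bulk sample cannot tell more choroid plexus cells from more RNA per cell.

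**Figure D2:**
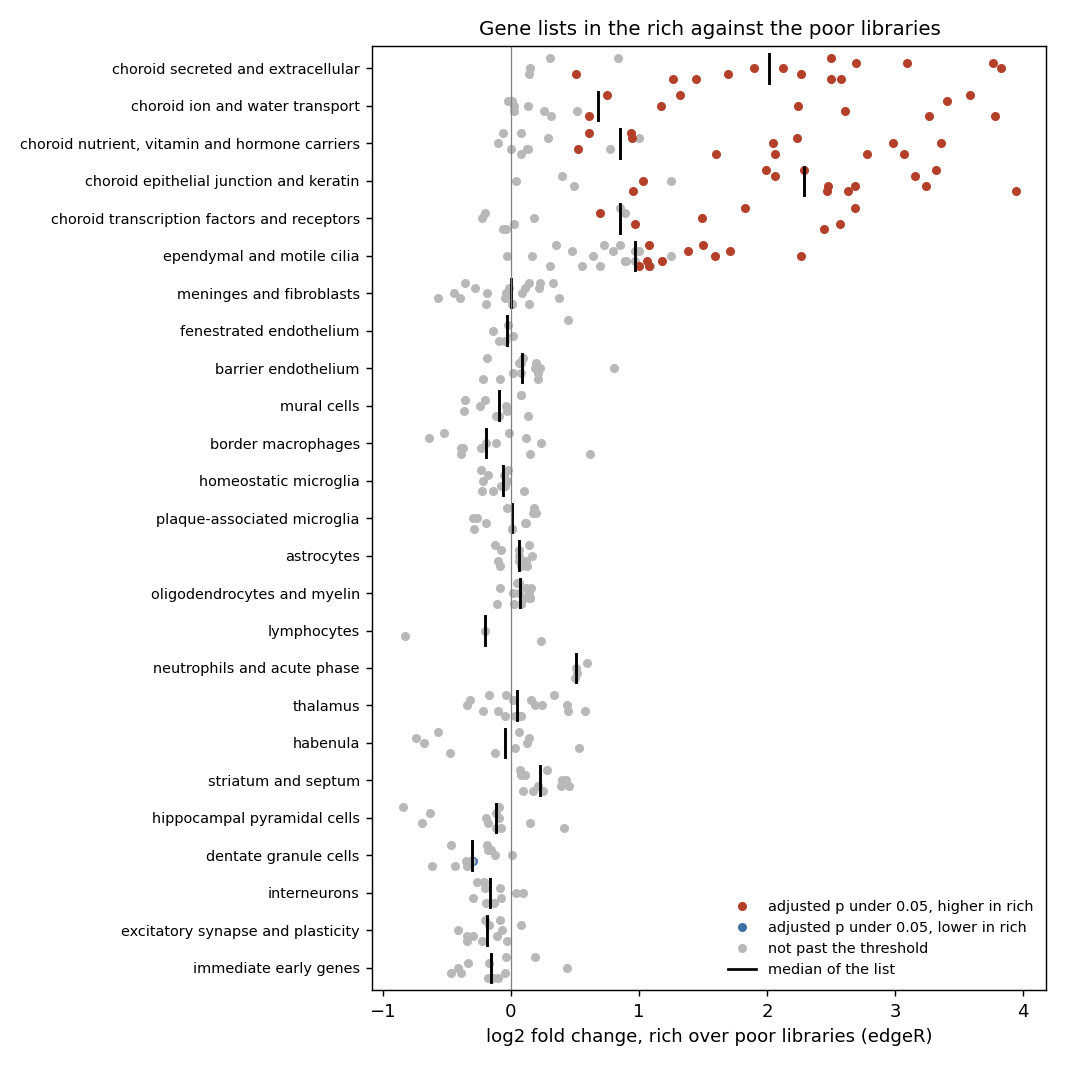
Log2 fold change of rich over poor libraries (edgeR) for each gene of 25 lists, Ttr left out. Each point is a gene, coloured where its adjusted p is under 0.05, and the black bar is the median of the list. The 5 choroid plexus lists and the ependymal list lie right of 0, with medians between 0.68 and 2.29, and the other lists have medians between -0.30 and 0.51.

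In 12 genes every rich library lay above every poor library of its study group in all 4 groups, which was seen for 0.0718% of the genes tested. They were Krt8, Clic6, Mfrp, Steap1, Rdh5, Wfdc2, Slc4a5, Folr1, Lbp, Enpp2, Tmem72 and Sgms2. Of these, 11 are on the choroid plexus lists, while Sgms2, a sphingomyelin synthase, is on no list and was picked out after its values were seen. In at least 3 study groups such a separation was seen for 37 genes (0.221%), 24 of them choroid plexus list genes. RefSeq promoter windows of 300 bases (250 before the start and 50 after it, GRCm38.p6) were at hand for 7 of the 11. They were searched on both strands for TAATCC, the core bound by OTX2, a homeobox factor that choroid plexus development and upkeep depend on, for GTAAACA, a core bound by forkhead factors such as FOXJ1, and for GTTGCC, a core bound by the RFX factors of ciliated cells. No 2 of these motifs overlap in the windows shown. Shown are the 2 windows that held a match, in capitals, and for comparison those of Krt8 and Slc4a5 from the 5 genes without one.
Mfrp: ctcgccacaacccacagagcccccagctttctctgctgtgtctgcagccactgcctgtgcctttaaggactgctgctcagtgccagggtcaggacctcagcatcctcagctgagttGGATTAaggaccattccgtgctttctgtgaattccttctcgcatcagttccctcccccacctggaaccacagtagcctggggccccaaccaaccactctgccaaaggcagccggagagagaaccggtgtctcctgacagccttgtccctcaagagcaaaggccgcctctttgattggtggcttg
Steap1: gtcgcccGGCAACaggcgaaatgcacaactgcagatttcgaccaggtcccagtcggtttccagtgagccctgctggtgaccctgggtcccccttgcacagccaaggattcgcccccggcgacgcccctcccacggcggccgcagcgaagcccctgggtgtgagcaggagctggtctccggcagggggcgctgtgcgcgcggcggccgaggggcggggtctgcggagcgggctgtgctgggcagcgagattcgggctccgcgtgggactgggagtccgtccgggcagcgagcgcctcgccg
Krt8: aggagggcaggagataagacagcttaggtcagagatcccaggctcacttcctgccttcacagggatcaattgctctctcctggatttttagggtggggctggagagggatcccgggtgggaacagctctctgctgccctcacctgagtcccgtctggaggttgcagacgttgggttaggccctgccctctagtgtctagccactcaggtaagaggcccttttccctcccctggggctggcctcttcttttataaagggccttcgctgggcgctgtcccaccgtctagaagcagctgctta
Slc4a5: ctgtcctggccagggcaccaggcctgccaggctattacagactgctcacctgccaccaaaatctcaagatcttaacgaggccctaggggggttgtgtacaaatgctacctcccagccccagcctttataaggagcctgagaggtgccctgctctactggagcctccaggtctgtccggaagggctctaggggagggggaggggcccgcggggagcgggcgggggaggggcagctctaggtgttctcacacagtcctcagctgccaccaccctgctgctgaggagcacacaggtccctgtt
The windows lie at chr9:44101520-44101819 (Mfrp, plus strand), chr5:5749268-5749567 (Steap1, minus strand), chr15:102004293-102004592 (Krt8, minus strand) and chr6:83237125-83237424 (Slc4a5, plus strand), and are written 5′ to 3′ on the strand of the gene. The capitals mark TAATCC on the opposite strand in Mfrp and GTTGCC on the opposite strand in Steap1, while the windows of Krt8, Slc4a5, Rdh5, Wfdc2 and Tmem72 held none of the 3 motifs. Over all windows, TAATCC was found in 8.14% of genes, GTAAACA in 4.05% and GTTGCC in 14.1%. Among the genes tested that had a window, the shares were 6.92%, 3.15% and 15.1% in the same order. Among the 42 choroid plexus list genes that were higher and had a window, 9.52% held TAATCC, 2.38% held GTAAACA and 19.0% held GTTGCC. These are counts of letters, and say nothing of whether a factor was bound.

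Genes of secreted and extracellular proteins were among those that differed most. Of 18 tested, 14 were higher in rich libraries (median log2 fold change 2.01). Mfrp, a frizzled-related membrane protein, had between 3.64 and 57.5 CPM in rich libraries (median 24.2), against 0.163 to 9.51 CPM in poor libraries (median 0.962). The sides overlapped only across study groups. Its log2 fold change was 3.76 (adjusted p = 2.31e-06 by the quasi-likelihood test of edgeR, SE 0.41). Because Mfrp overlaps C1qtnf5 and the counting is not stated to use strand, the 2 cannot be told apart with certainty. Enpp2, which encodes the lysophosphatidic acid producing enzyme autotaxin, had 420.0 to 3898 CPM in rich libraries (median 1108) and 185 to 780.1 CPM in poor libraries (median 300.4). Among the tested choroid plexus genes it had the highest median level per length on both sides, with median FPKM of 192 in rich and 52.6 in poor libraries, and its log2 fold change was 1.90 (adjusted p = 1.95e-05, SE 0.26). Wfdc2, a secreted protease inhibitor, had 0.417 to 6.87 CPM in rich libraries (median 2.64), against 0 to 0.748 CPM in poor libraries (median 0.0880), where 7 of 16 libraries held no read. Lbp, the lipopolysaccharide binding protein, had 4.59 to 56.8 CPM in rich and 0.777 to 15.1 CPM in poor libraries (log2 fold change 2.13, adjusted p = 1.53e-05, SE 0.28).

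Several further genes of secreted and extracellular proteins were higher. Among them were the anti-ageing factor klotho (Kl, log2 fold change 2.27), coagulation factor V (F5, 3.09), angiotensin converting enzyme (Ace, 1.698), the BMP and WNT antagonist Sostdc1 (2.58), the IGF binding protein Igfbp2 (1.27) and the collagens Col8a1 (2.70), Col8a2 (2.50) and Col9a3 (1.44). The median FPKM of Kl was 13.1 in rich and 2.19 in poor libraries. In contrast, Igf2 (log2 fold change 0.84, adjusted p = 0.174), Bmp7 (0.15, adjusted p = 0.794), Cp (0.14, adjusted p = 0.776) and Rarres2 (0.31, adjusted p = 0.578) did not pass the test. Of these 4, Igf2, Bmp7 and Rarres2 are also made by the meninges and Cp by astrocytes. Whether this bears on their values was not tested.

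Of 18 genes of ion and water transport, 10 were higher (median log2 fold change 0.68). Slc4a5, a sodium bicarbonate cotransporter of the apical membrane, had 3.78 to 77.1 CPM in rich libraries (median 19.3), against 0 to 11.2 CPM in poor libraries (median 1.15), a log2 fold change of 3.78 (adjusted p = 6.02e-06, SE 0.46). Clic6, an intracellular chloride channel protein, had 13.4 to 151 CPM in rich libraries (median 51.5) and 3.14 to 25.1 CPM in poor libraries (median 7.86), with a log2 fold change of 2.61 (adjusted p = 2.31e-06, SE 0.28). Every rich library had more Clic6 than every poor library of its study group, but the 5xFAD/Veh rich libraries (14.6 to 22.1 CPM) lay below the highest WT/D-45113 poor library (25.1 CPM). The potassium channel genes Kcnj13 (log2 fold change 3.58) and Kcne2 (3.40), the water channel Aqp1 (3.27), the osmosensitive cation channel Trpv4 (2.24) and the carbonic anhydrase Car12 (1.32) were higher as well. Kcnj13 lies within Gigyf2, so that some of its reads could belong to that gene. Slc12a2, the NKCC1 cotransporter, had a log2 fold change of 0.32 (adjusted p = 0.135), and Slc12a4, Atp2b3, Kcna1, Atp11a, Slc26a11, Trpm3 and Atp4a did not pass either. Slc12a2, Atp2b3 and Kcna1 are also used by glia or neurons, and their median FPKM in poor libraries was 20.8, 23.0 and 21.9. That of Slc26a11 and Atp4a was 0.947 and 0.119, and that of Enpp2, which passed, was 52.6. Over all 5 choroid plexus lists, 41 genes had a median under 1 FPKM in poor libraries. Of these, 31 were called, with a median log2 fold change of 2.48. Of the 48 genes at 1 FPKM or more, 24 were called, with a median of 0.57. Whether these levels bear on the calls was not tested.

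Among 22 carriers of nutrients, vitamins and hormones, 12 were higher (median log2 fold change 0.86). Folr1, the receptor that carries folate across the choroid plexus epithelium, had 3.84 to 91.8 CPM in rich libraries (median 28.3), against 0.529 to 10.9 CPM in poor libraries (median 2.06). Poor WT/D-45113 libraries 3M (10.9 CPM) and 1M (9.40 CPM) lay above the rich 5xFAD/Veh libraries (3.84 to 9.20 CPM), and the log2 fold change was 3.36 (adjusted p = 8.93e-06, SE 0.42). The metalloreductase gene Steap1 had 1.69 to 11.7 CPM in rich and 0 to 1.77 CPM in poor libraries (log2 fold change 3.07, adjusted p = 5.19e-06, SE 0.37). Rdh5, a retinol dehydrogenase, had 2.83 to 37.2 CPM in rich and 1.82 to 8.06 CPM in poor libraries (log2 fold change 2.06, adjusted p = 5.92e-06, SE 0.26). The lactate carrier Slc16a8 (2.99), the sugar carrier Slc2a12 (2.05), the zinc carrier Slc39a4 (1.599), the copper carrier Slc31a1 (0.95) and the thyroxine carrier Slco1c1 (0.61) were higher too. The reduced folate carrier Slc19a1 (log2 fold change 0.29, adjusted p = 0.193), the proton-coupled folate carrier Slc46a1 (0.13, adjusted p = 0.695) and the vitamin C carrier Slc23a2 (-0.06, adjusted p = 0.778) did not pass, so that of the 3 folate carriers tested, Folr1 alone passed.

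The epithelial junction and keratin list had the highest median log2 fold change (2.29), and 13 of its 17 genes were higher. The list also holds choroid plexus genes of neither kind, among them Tmem72, Cox8b (3.24), Prr32 (3.16) and Lmx1a (2.68). Its count and median are therefore not those of junction and keratin genes alone. Krt8, a keratin of simple epithelia, had 1.32 to 14.4 CPM in rich libraries (median 4.53), against 0.148 to 2.22 CPM in poor libraries (median 0.840), and the smallest p of all genes tested (log2 fold change 2.47, adjusted p = 2.31e-06, SE 0.28). Its partner Krt18 had a log2 fold change of 2.29. The tight junction genes Cldn2 (3.32), Cldn3 (2.63), Cldn1 (2.06) and Tjp3 (2.00) were higher. Tmem72, a transmembrane protein, had 2.25 to 65.6 CPM in rich libraries (median 18.2), against 0 to 11.8 CPM in poor libraries (median 0.366), a log2 fold change of 3.94 (adjusted p = 3.75e-05, SE 0.55). Cdh1, which encodes E-cadherin, had a log2 fold change of 0.04 (adjusted p = 0.984) and a median FPKM of 0.190 in rich and 0.180 in poor libraries.

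**Figure D3:**
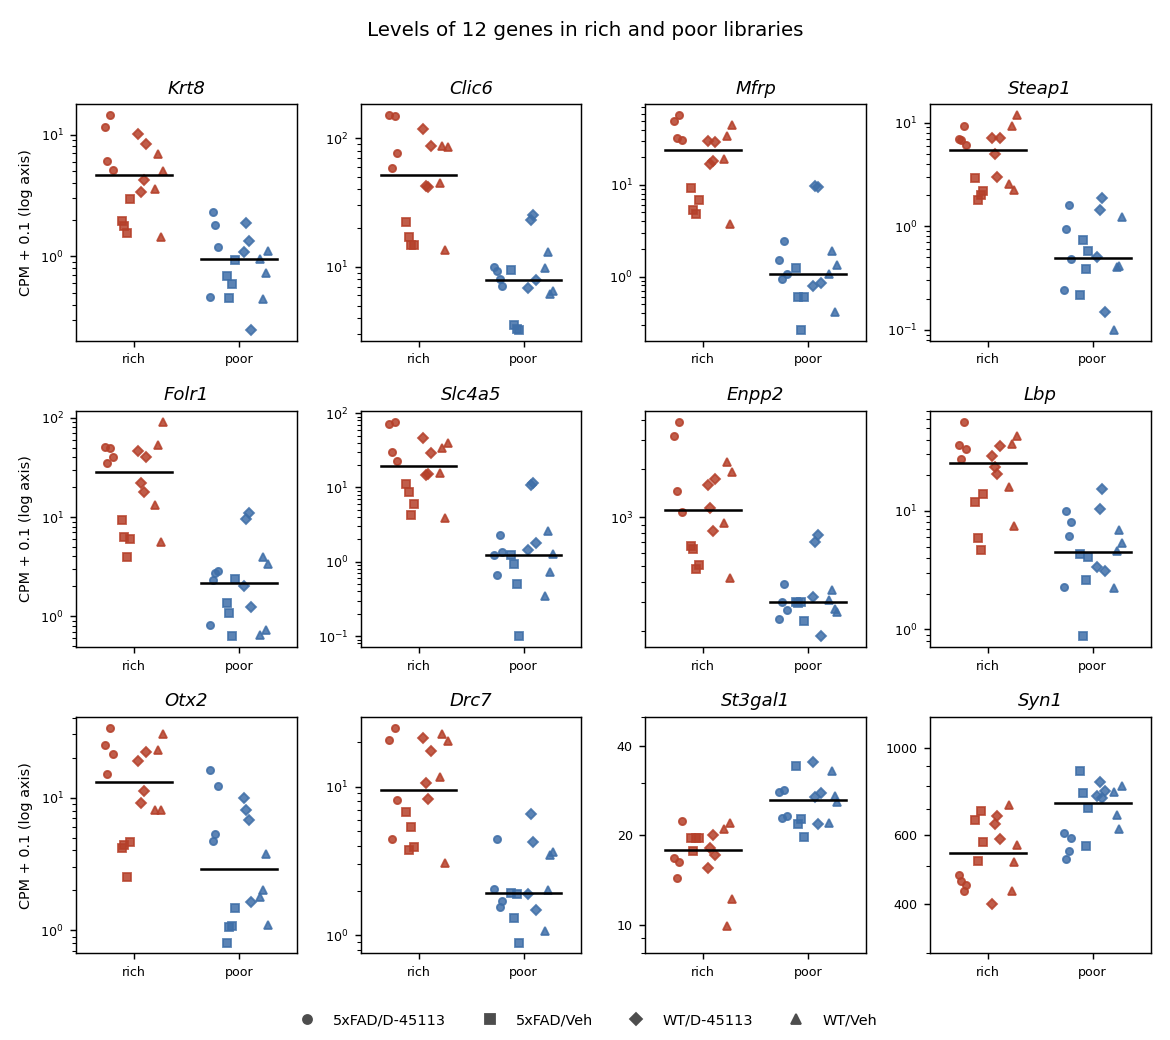
Levels of 12 genes as CPM + 0.1 (log axes), with rich libraries left and poor libraries right. Each point is a library, its shape marks the study group and the bar is the median of 16 libraries. For the 8 choroid plexus genes in the top 2 rows the rich libraries of 5xFAD/Veh lie below the median of the rich libraries, and St3gal1 and Syn1 run the other way.

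Of 15 transcription factors and receptors, 7 were higher (median log2 fold change 0.85). Otx2 had 2.42 to 33.4 CPM in rich libraries (median 13.05), against 0.711 to 16.1 CPM in poor libraries (median 2.81), with a log2 fold change of 1.83 (adjusted p = 9.19e-05, SE 0.28). The ranges overlapped within 2 of the 4 study groups, and 5xFAD/D-45113 1F had 16.1 CPM of Otx2 at a Ttr of only 31.9 FPKM. Otx2os1, transcribed from the opposite strand over Otx2, had a log2 fold change of 2.45 (adjusted p = 0.018), and reads of the pair cannot be told apart without strand. The prolactin receptor Prlr (2.57), the roof plate factor Lmx1a (2.68, counted on the junction list too), the homeobox factor Msx1 (1.49), the cilia factor Foxj1 (0.97) and the serotonin receptor Htr2c (0.70) were the other genes called, of which Htr2c lost its call without some single libraries (adjusted p up to 0.0657). The multiciliation genes Gmnc (-0.23, adjusted p = 0.872) and Mcidas (0.02, adjusted p = 0.989) and the cilia factors Rfx2 (0.18, adjusted p = 0.711) and Rfx3 (-0.20, adjusted p = 0.743) did not pass.

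Ependymal cells and motile cilia were also represented. Of 29 such genes tested, 10 were higher in rich libraries, 0 were lower and 28 of 29 had a positive log2 fold change (median 0.97), where 1.39% of all genes tested were higher and 51.7% positive. Drc7, a subunit of the dynein regulatory complex of motile cilia, had 2.98 to 24.7 CPM in rich libraries (median 9.32), against 0.795 to 6.49 CPM in poor libraries (median 1.81). Its ranges were separate within 3 of the 4 study groups, and its log2 fold change was 2.27 (adjusted p = 5.92e-06, SE 0.28). Spag16 (1.71), Mlf1 (1.59), Pifo (1.499), Dynlrb2 (1.38), Tekt1 (1.18), Cfap126 (1.08), Hydin (1.08), Rsph4a (1.06) and Rsph1 (1.00) were the others, all genes of the ciliary axoneme or of cilium assembly. Hydin and Dynlrb2 lost their calls without some single libraries (adjusted p up to 0.0726 and 0.108). The axonemal dynein genes Dnah5 (0.31, adjusted p = 0.659), Dnah6 (0.90, adjusted p = 0.149) and Dnah11 (1.00, adjusted p = 0.235) did not pass. Among the 8 ependymal genes that were higher and had a promoter window, 75.0% held GTTGCC, where 15.1% of the genes tested did. Both the ependyma and the choroid plexus epithelium bear cilia, and the 2 sources cannot be told apart here.

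Markers of the other tissues that adjoin the choroid plexus did not pass the test. Of 20 genes of meninges and fibroblasts, 0 were called, with a median log2 fold change of 0.00, and their summed level was 365 to 1745 CPM in rich libraries and 353 to 1627 CPM in poor libraries. Col1a1, a collagen of fibroblasts, had 2.18 to 12.6 CPM in rich and 3.74 to 19.2 CPM in poor libraries (log2 fold change -0.39, adjusted p = 0.505). Among 6 genes of fenestrated endothelium, the vessel type of the choroid plexus stroma, 0 were called, and Plvap, its diaphragm protein, had a log2 fold change of 0.44 (adjusted p = 0.301, SE 0.19). Likewise 0 of 13 genes of border macrophages, 0 of 14 of barrier endothelium and 0 of 11 of mural cells were called (medians -0.19, 0.09 and -0.09). At an unadjusted p under 0.05 there were 0 meningeal genes, 1 of fenestrated endothelium, 1 of border macrophages, 1 of barrier endothelium and 3 of mural cells. Lists for neighbouring brain regions held 0 called genes as well. The median of 18 thalamic genes was 0.05, and their summed level spanned 265 to 2450 CPM in rich and 246 to 2499 CPM in poor libraries. The groups differed in this. The mean thalamic score (mean centred log2 CPM) was 1.22 in rich and 0.28 in poor 5xFAD/D-45113 libraries, but -0.50 and 0.39 in WT/D-45113. It was -0.68 and -0.88 in 5xFAD/Veh, and 0.12 and 0.04 in WT/Veh. The sides overlapped in every group. The median of 10 habenular genes was -0.05. Their mean score was 1.31 in rich and 0.26 in poor 5xFAD/D-45113 libraries, but -0.67 and 0.59 in WT/Veh. It was -0.70 and -0.68 in 5xFAD/Veh, and -0.03 and -0.08 in WT/D-45113. All 12 striatal and septal genes had a positive log2 fold change (median 0.23), against 51.7% of all genes tested. The groups differed here too. Their mean score was -1.36 in rich and -0.75 in poor 5xFAD/D-45113 libraries, and 0.84 and 1.05 in WT/Veh. It was 0.59 and -0.08 in 5xFAD/Veh, and 0.36 and -0.65 in WT/D-45113. At an unadjusted p under 0.05 there were 0 on each of these 3 lists. A value that misses the threshold does not show that the level was equal.

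Microglia are the target population of the study. Of 12 genes of homeostatic microglia and 12 of plaque-associated microglia, 0 were called, with medians of -0.06 and 0.01, and 1 on each list had an unadjusted p under 0.05. Only 1 of the 12 homeostatic genes and 7 of the 12 plaque-associated genes had a positive log2 fold change, against 51.7% of all genes tested. WT/D-45113 2F, a rich library, had the lowest homeostatic score of its group (mean centred log2 CPM -1.49, next -0.63). Csf1r had 86.9 to 352 CPM in rich libraries (median 171), against 114 to 365 CPM in poor libraries (median 199), a log2 fold change of -0.14 (adjusted p = 0.55, SE 0.08). Itgax, a marker of plaque-associated microglia, had a log2 fold change of -0.30 (adjusted p = 0.667, SE 0.23). Lists of astrocytes (12 genes), oligodendrocytes (14 genes), lymphocytes (3 tested) and neutrophils with acute-phase genes (4 tested) held 0 called genes, with medians of 0.06, 0.07, -0.20 and 0.51, and 0 at an unadjusted p under 0.05. All 4 neutrophil and acute-phase genes had a positive log2 fold change. Their score was 2.02 to 2.25 in rich and 0.34 to 1.52 in poor 5xFAD/D-45113 libraries, without overlap, while the sides overlapped in the other 3 study groups. The list was summed at 0.994 to 41.3 CPM in rich and 0.373 to 24.2 CPM in poor libraries.

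The 30 genes that were lower in rich libraries differed little, with a median log2 fold change of -0.39 and a range from -1.53 to -0.26. St3gal1, a sialyltransferase, had 9.82 to 22.3 CPM in rich libraries (median 17.8), against 19.6 to 35.2 CPM in poor libraries (median 26.3). It was the only gene whose rich libraries lay below the poor libraries within all 4 study groups (0.00598% of genes tested), and its log2 fold change was -0.58 (adjusted p = 0.000695, SE 0.10). Prr36, a proline-rich protein, had the smallest p of the lower genes, with 11.5 to 24.8 CPM in rich and 16.6 to 42.1 CPM in poor libraries (log2 fold change -0.73, adjusted p = 0.000121, SE 0.11). Syn1, which encodes the synaptic vesicle protein synapsin I and overlaps Timp1 and Araf, had 399.6 to 716 CPM in rich libraries (median 541), against 522 to 874 CPM in poor libraries (median 724), and the ranges were separate within 2 of the 4 study groups (log2 fold change -0.34, adjusted p = 0.00799, SE 0.08). The auxiliary AMPA receptor protein Cacng3 (-0.37), the phosphodiesterase Pde4a (-0.34), the palmitoyltransferase Zdhhc8 (-0.31), the polarity gene Prickle1 (-0.37), the corepressor Tle2 (-0.76), the potassium channel Kcnc4 (-0.47) and Etl4 (-0.53) were lower as well. Tshz2 (-1.17), Tshz3 (-0.68), Sypl2 (-0.61) and Marcks (-0.29) were lower in the full set, but each lost its call without some single libraries. Of 12 genes of dentate granule cells 1 was lower, Marcks, where 0.179% of all genes tested were, and for 11 of 12 the fold change lay below 1 (log2 median -0.30), against 48.3% of all genes tested. The lists for pyramidal cells (12 genes), interneurons (10), excitatory synapses (12) and immediate early genes (12) held 0 called genes, with medians of -0.11, -0.16, -0.18 and -0.15, while 4, 0, 3 and 2 genes in the same order had an unadjusted p under 0.05 and 2, 2, 1 and 2 had a positive log2 fold change. The dentate granule cell score of rich WT/D-45113 2F was -1.02, with the next library of its group at 0.16. The count of 30 depended on single libraries. It was 15 without 5xFAD/D-45113 1F or without 5xFAD/Veh 4F, 17 without WT/D-45113 2F or 4F, 18 without WT/Veh 3F or 4M, and 19 without WT/D-45113 1M or 2M. It was 46 without 5xFAD/Veh 3F, 49 without WT/Veh 2M and 215 without WT/Veh 1F. In addition, genes that were higher, here with Ttr included, took up to 1.69% of the counts of a library (5xFAD/D-45113 2M, where Ttr alone took 0.492%). Their part in these small decreases was not tested.

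Of the 233 higher genes, 168 were on no list. Cltrn, Sema3b and 2900040C04Rik (log2 fold change 3.45) were among the 10 genes with the smallest p. The others named here were chosen after their values were seen. The ABC transporter Abca4 had 3.60 to 74.4 CPM in rich libraries (median 16.7), against 0.848 to 11.3 CPM in poor libraries (median 2.43), with a log2 fold change of 2.59 (adjusted p = 0.000101, SE 0.39). Cltrn, the amino acid transport regulator collectrin, had 0.0602 to 10.2 CPM in rich libraries (median 1.47), against 0 to 0.278 CPM in poor libraries (median 0.0608), where 7 of 16 held no read. The paraoxonase gene Pon1 had up to 3.56 CPM in rich libraries, against at most 0.385 CPM in poor libraries, of which 11 of 16 held no read. The leptin receptor Lepr (log2 fold change 1.41), the semaphorin Sema3b (1.83), the heparan sulfate sulfatase Sulf1 (1.53), the complement regulator Cd59a (1.19), the complement component C3 (0.88), the cell cycle inhibitor Cdkn1c (1.22) and the adhesion molecule Vcam1 (0.39) were higher as well. Vcam1 had 32.5 to 54.3 CPM in rich libraries (median 43.8), against 22.2 to 43.9 CPM in poor libraries (median 34.5), and the ranges overlapped within every study group.

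Whether the difference between rich and poor libraries varied between study groups was tested as an interaction of side and study group. It gave 0 of 16723 genes at an adjusted p under 0.05 (edgeR), while 417 (2.49%) had an unadjusted p under 0.05, and DESeq2 gave 0 as well, with 582 at an unadjusted p under 0.05. The 5 genes with the smallest p, Tac2, Cdh9, BC067074, Rhcg and Acaa2, had an adjusted p of 0.999. The log2 fold change of Ttr, which chose the libraries, was 4.26 in 5xFAD/D-45113, 3.89 in 5xFAD/Veh, 2.45 in WT/D-45113 and 4.16 in WT/Veh. Estimates by study group are given for 2 choroid plexus genes, whose differences between groups did not pass the interaction test. The log2 fold change of Clic6 was 3.67 in 5xFAD/D-45113, 1.86 in 5xFAD/Veh, 2.21 in WT/D-45113 and 2.70 in WT/Veh. That of Enpp2 was 3.01, 1.02, 1.41 and 2.19 in the same order. When each study group was fitted alone, with 4 libraries against 4, 61 genes were higher in 5xFAD/D-45113, 4 in 5xFAD/Veh, 5 in WT/D-45113 and 0 in WT/Veh, so that most calls rest on the 4 groups together. Without the libraries of 5xFAD/D-45113, 76 genes were higher, without those of WT/D-45113 130, and without those of WT/Veh 120.

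The ranking was made within study groups, so it leaves any difference in Ttr between them in place. Median Ttr was 581 FPKM in 5xFAD/D-45113, 102 FPKM in 5xFAD/Veh, 699 FPKM in WT/D-45113 and 185 FPKM in WT/Veh libraries. Without a term for the side, Ttr had a log2 fold change of 2.75 (adjusted p = 0.168, edgeR, SE 1.14) between 5xFAD/D-45113 and 5xFAD/Veh, -1.89 (adjusted p = 0.579, SE 1.11) between 5xFAD/Veh and WT/Veh, and 0.79 (adjusted p = 0.984, SE 1.08) between WT/D-45113 and WT/Veh. None passed the test after adjustment over all genes tested. The unadjusted p of the same test (edgeR) was 0.0225, 0.0981 and 0.469 in the same order. These comparisons share the 5xFAD/Veh or the WT/Veh libraries.

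The choroid plexus genes were then followed through these comparisons with and without a term for the side. Between 5xFAD/D-45113 and 5xFAD/Veh, 12 of the 89 genes were higher without the term, where 2.21% of all genes tested were higher, and 28 were higher with it, where 2.52% were higher. Their median log2 fold change was 1.13 without the term and 0.87 with it. With the log2 CPM of Ttr itself as the covariate, not centred on the study groups, 3 of the 89 were higher, where 1.8% of all genes tested were, and the median was 0.09. Clic6 had a log2 fold change of 2.43 (adjusted p = 0.0708, SE 0.77) without the side and 1.86 (adjusted p = 0.00757, SE 0.40) with it. Between 5xFAD/Veh and WT/Veh, 1 of the 89 genes was higher and 0 were lower without the term, where 3.65% of all genes tested were higher and 0.209% lower. With the term 1 was higher and 6 were lower, where 3.8% were higher and 0.275% lower. With log2 Ttr 2 were higher and 0 were lower, where 3.83% were higher and 0.281% lower. The median log2 fold change of the 89 genes here was -0.64 without the term, -0.45 with it and -0.01 with log2 Ttr. In the same order 13, 14 and 43 of the 89 lay above 0. Between WT/D-45113 and WT/Veh, 0 of the 89 were called in any of the 3 fits, where 0.0239% of all genes tested were called with or without the side and 0.012% with log2 Ttr. The covariate fit was chosen after seeing the data. Without 5xFAD/D-45113 1M and 4F, the 5xFAD/D-45113 comparison gave 3 choroid plexus genes with no term, 11 with the side and 2 with log2 Ttr. Leaving out 1 library of these 2 groups at a time gave 2 to 21 genes with no term, 17 to 34 with the side and 2 to 7 with log2 Ttr. The counts moved by over 1.5 times with no term without 5xFAD/D-45113 4F (4), 1M (4), 2M (2) or 3M (21) and without 5xFAD/Veh 1F (5), 2F (4), 3F (6), 2M (5), 3M (5) or 4M (5). With the side they did so without 5xFAD/D-45113 2M (17) and without 5xFAD/Veh 3F (18) or 4F (17), and with log2 Ttr without 5xFAD/D-45113 3M (7) and 5xFAD/Veh 1M (5).

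**Figure D4:**
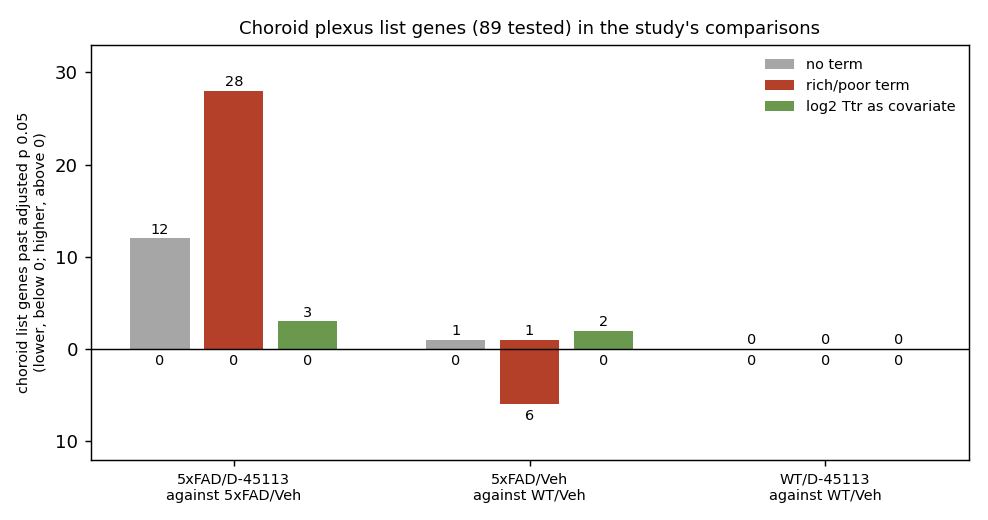
Number of the 89 choroid plexus list genes past an adjusted p of 0.05 in each comparison of the study (edgeR), higher above 0 and lower below 0, with no term, with the rich/poor term and with log2 Ttr as covariate. In 5xFAD/D-45113 against 5xFAD/Veh the count is 12 with no term, 28 with the side and 3 with log2 Ttr.

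Over all genes, adding the side moved the calls little. Between 5xFAD/D-45113 and 5xFAD/Veh 662 genes were called without it (3.96%) and 744 with it (4.45%), and 651 of them were called in both fits. Between 5xFAD/Veh and WT/Veh there were 646 without it (3.86%) and 682 with it (4.08%), 644 in both, and between WT/D-45113 and WT/Veh the same 4 genes were called in both. The count of 744 was 461 without 5xFAD/D-45113 2M, 1126 without 5xFAD/D-45113 3M, 478 without 5xFAD/Veh 1F and 454 without 5xFAD/Veh 4F. It was 239 without 5xFAD/D-45113 1M and 4F, and 20 with the score of the thalamic genes as a further covariate. The count of 4 was 2 without WT/D-45113 3M or 4M, or without WT/Veh 2F, 3F, 1M or 3M.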

How the data were processed

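RNA-seq of 32 hippocampi (8 mice in each of 4 groups, grouped by the deposited labels) was analysed. The authors deposited raw counts per gene for 54532 genes, and FPKM values, which are these counts divided by gene length and by the library total, times 1 constant per library (0.92 to 1.11). Novogene made and sequenced the libraries and mapped the reads. The submitters' processing notes name mm10. Aligner and counter: not given in the sources used here. Every deposited column belonged to 1 library.

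Libraries were ranked by the deposited FPKM of Ttr within each group. Counts were fitted in R 4.3.3 with edgeR 4.0.16 (filterByExpr, 16723 genes, TMM, robust quasi-likelihood, terms for group and side), and p-values were adjusted by Benjamini-Hochberg over all genes tested and called at 0.05. SE is the absolute log2 fold change divided by the square root of F. CPM are TMM scaled. Summed levels and scores (mean log2 CPM, prior count 2, centred per gene) describe lists. Alternatives used limma 3.58.1 (voom, and log2(FPKM + 1) or log2(FPKM + 0.1)), DESeq2 1.42.0 and other settings. The code was tested on simulated data. Figures were drawn with Python 3.11.15 and matplotlib 3.10.9. Promoters are RefSeq windows (GRCm38.p6), matched by symbol.

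The members, the 25 lists and the tests were chosen with earlier results of these data known. By rule, genes to name were taken from Ttr, 10 genes per direction by p and 5 by size of change (mean CPM 1 or more), 6 genes by p on each choroid plexus list, 4 on each other list, and 5 for the interaction, and not all of them are named. Other choroid plexus and ependymal list genes, and those of no list, were named after their values were seen. Counting precision is limited by totals of 10707410 to 30368498.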

Additional observations from a re-analysis of the deposited data

Results flagged for a closer look

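A sample was looked for that lay far from the other 7 of its study group, in Ttr, total counts and 26 list scores (mean centred log2 CPM) of the 4 groups. Of 112 sets of 8 libraries, 6 held one, and chance alone gives about 1 in 20. None was a choroid plexus or ependymal score. The homeostatic microglia score of WT/D-45113 2F was -1.49, with the next library at -0.63, and its dentate granule cell score was -1.02, with the next at 0.16. This is the rich library with the most Ttr of its group. WT/D-45113 3M, a poor library, had a lymphocyte score of -2.10 (3 genes tested) and a striatum and septum score of -2.26. The striatum and septum score of 5xFAD/Veh 4M, also poor, was -1.495, with the next at 0.04. The habenula score of WT/Veh 2M, a poor library, was 3.11, with the next at 0.07.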

How the results depend on the processing

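The 233 higher genes became 149 with limma on log2(FPKM + 1) at a mean of at least 1 FPKM. With the replicate number as a block (replicate block) 142 were higher and 11 lower. The same-numbered mice share only a label: over 48 pairs their correlation ran from -0.23 to 0.28 (median 0.05), with 17 over 0.1. Without 5xFAD/D-45113, WT/D-45113 or WT/Veh 76, 130 and 120 were higher. Alone, 5xFAD/D-45113 gave 61, 5xFAD/Veh 4, WT/D-45113 5 and WT/Veh 0 (choroid plexus genes 4, 3 and 0 in the last 3). A split at 100 FPKM of Ttr, chosen after seeing the data, gave 66 higher and 1 lower. The 30 lower genes became 63 with voom, 84 with DESeq2, 50 with continuous Ttr, 16 with the top 2 and bottom 2 libraries, and 47 without 5xFAD/D-45113 1M and 4F. They became 11, 17, 5 and 15 without 5xFAD/D-45113, 5xFAD/Veh, WT/D-45113 or WT/Veh, and 0 in each of 5xFAD/D-45113, 5xFAD/Veh and WT/Veh alone. Leaving out 1 library gave 178 to 312 higher, 15 to 215 lower and 52 to 56 choroid plexus genes. With the side, 5xFAD/D-45113 against 5xFAD/Veh (744) gave 448 without a filter, 20 with the thalamus score, 185 with the top 2 and bottom 2, 239 without 1M and 4F, 1240 with DESeq2 and 454 to 1126 over single libraries. 5xFAD/Veh against WT/Veh (682) gave 369 with the top 2 and bottom 2, and 606 to 703. WT/D-45113 against WT/Veh (4) gave 0 with voom, 1, 7 and 8 with limma on log2(FPKM + 1), log2(FPKM + 0.1) and the first of these at a mean of at least 1 FPKM, 1 with the top 2 and bottom 2, 2 with log2 Ttr, 34 with DESeq2, and 2 to 6. The causes were not tested. Of 81 called genes followed through the settings, which include every called gene named in the text, 81 kept their direction in every fit and 74 their call in each of 32 fits without 1 library. Depth limits genes such as Wfdc2, Cltrn and Pon1, which many poor libraries held at 0 counts.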
